A study of Bos taurus with 16 samples.

Results

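The mitochondrial ribosomal protein genes are the nuclear genes whose symbols begin with MRPL, for the large subunit of the ribosome inside mitochondria, or MRPS, for its small subunit. They were taken as every row of the count and expression tables whose NCBI gene ID carries a bovine symbol made of one of these prefixes, a number and at most one letter from A to C. This gave 78 genes, 49 with an MRPL and 29 with an MRPS symbol, out of 34109 listed genes. Genes are counted below as large or small subunit by this symbol alone, which does not settle where each product lies. The choice used names and no measured value.

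RNA was sequenced from the round muscle of the hind limb and the sirloin muscle of 8 newborn Hanwoo calves, a Korean beef breed. The 4 control calves were born to cows fed 100% of their nutritional requirement in mid to late pregnancy, and the 4 treated calves to cows fed 150%. Each calf gave 1 round and 1 sirloin library, so that each of the 4 groups held 4 calves, and the same replicate number marks both muscles of a calf. The study's methods give all calves as male, sampled at birth before colostrum and with no feeding of their own, and the diet was that of the mother alone. The 16 libraries held between 44473011 and 72446933 counted reads.

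Mitochondria carry their own small genome, whose protein genes encode core subunits of the respiratory chain and of ATP synthase. These few proteins are made by a dedicated ribosome, the mitoribosome, whose RNAs come from the mitochondrial genome and whose proteins all come from nuclear genes and are imported. Skeletal muscle holds many mitochondria, more in slow than in fast fibres, and the mitoribosome is therefore one of the places where nuclear and mitochondrial gene expression meet.

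Levels between genes were compared in the deposited TPM, a share of all transcripts that corrects for gene length. All 78 genes were detected in all 16 libraries, with counts between 143 and 8064. Their mean TPM over the 16 libraries ran from 11.3 to 170, a 15.0-fold span, with a median of 46.3 and quartiles of 32.5 and 67.0. Of the 11899 genes with a mean of at least 1 TPM the median was 9.46 TPM, and all 78 lay above it. The median was 49.0 TPM for the large and 40.6 TPM for the small subunit genes.

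The highest mean level was that of MRPS36, at 170 ± 51.9 TPM (SD, n = 16 libraries). The product of MRPS36, also named KGD4, is now known mainly as a component of the alpha-ketoglutarate dehydrogenase complex, so the top of the order was held by a gene whose place in the mitoribosome is doubtful. MRPL9 followed at 148 ± 28.7 TPM, MRPL33 at 125 ± 35.1 TPM, MRPS33 at 111 ± 18.7 TPM and MRPL21 at 103 ± 16.7 TPM. The 5 lowest were MRPL22 at 11.3 ± 2.16 TPM, MRPS9 at 12.1 ± 2.28 TPM, MRPS24 at 12.7 ± 3.32 TPM, MRPS12 at 14.6 ± 4.13 TPM and MRPS28 at 17.0 ± 4.00 TPM. MRPS12 lies at the decoding centre, where codon and anticodon are matched. The mean transcript levels of the set thus spanned more than an order of magnitude, and protein levels were not measured.

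The order of the genes was similar from library to library. Spearman's rho of the 78 TPM values lay between 0.707 and 0.966 over the 120 pairs of libraries, with a median of 0.855. These values are given as a description, since the libraries share gene length and annotation. The library ranges overlapped in every adjacent pair of the order, and neighbours were not compared within libraries.

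**Figure D1:**
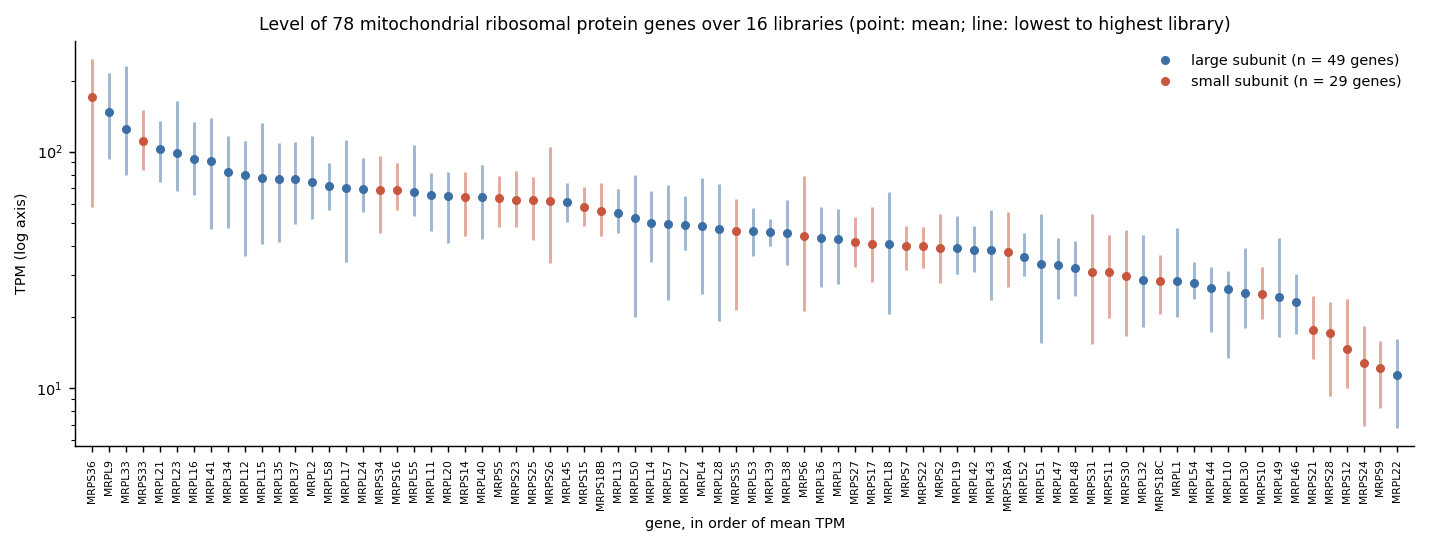
TPM on a log axis of each of the 78 genes, in order of the mean over 16 libraries (point) with the lowest and highest library (line), coloured by subunit. The means run from 170 TPM for MRPS36 to 11.3 TPM for MRPL22, and the range of each gene overlaps that of its neighbour.

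Summed over the 78 genes, the transcripts made up a small and narrow share of each library. The sum was 3867, 3594, 4508 and 4057 TPM in the round control libraries 1 to 4 and 4612, 3360, 4389 and 4632 TPM in the round treated libraries. It was 3690, 4154, 4083 and 4129 TPM in the sirloin control libraries and 4773, 3679, 4529 and 4199 TPM in the sirloin treated libraries. The diets overlapped in both muscles, and the library of treated replicate 2 had the lowest sum of its group in both. The sign of the small diet difference depended on the scale. On log2 of the mean summed TPM the treated groups stood 0.08 higher in round and 0.10 higher in sirloin muscle, while on CPM, counts as a share of the library, scaled by the trimmed mean of M values (TMM), they stood at -0.02 and -0.09. TPM is a share of all transcripts, and the share of the mitochondrial genome's own transcripts ranged from 12.1% to 24.3% of TPM between libraries. In bulk muscle, fewer cells or mitochondria-rich fibres and less RNA per cell cannot be told apart.

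Among the 16 libraries, 3 stood apart by marker genes of other cell or fibre types. The 6 fibroblast markers summed to 2141 TPM in round control replicate 2, against 268 to 503 TPM in the other round libraries. The 8 slow fibre markers summed to 83858 TPM in round treated replicate 2, against 15508 to 40182 TPM in the other round libraries. The 6 adipocyte markers summed to 3778 TPM in sirloin treated replicate 4, against at most 15.4 TPM in any other library. That library also had the highest endothelial marker sum, 174 TPM against at most 98.6 TPM in any other library. Its fibroblast marker sum was 740 TPM, against 174 to 583 TPM in the other sirloin libraries. Red blood cell markers summed to at most 32.3 TPM in any library. Immune cell markers summed to 11.5 TPM in round treated replicate 2 and 13.8 TPM in sirloin treated replicate 2, which are of the same calf. The other libraries had 3.15 to 7.12 TPM, and sirloin treated replicate 2 was not counted among the 3. Slow and fast fibre markers were high in all 16. The fast fibre sum was lowest in round treated replicate 2, at 20129 TPM against 29755 to 62780 TPM in the other round libraries. The main counts and correlations are also given without the 3 libraries.

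The first comparison asked whether the mother's diet moved the mitoribosome genes of round muscle. No gene of the set was called. In the edgeR quasi-likelihood test with Benjamini-Hochberg adjustment of p over 21677 genes, 0 of the 78 passed an adjusted p of 0.05, where 0.0185% of all tested genes did, and the smallest adjusted p was 0.864. At an unadjusted p under 0.05 the count was also 0, against 4.41% of all tested genes, and DESeq2 and limma-voom likewise gave 0 adjusted calls. The log2 fold changes, treated minus control, ran from -0.67 to 0.46 with a median of 0.01, beside a median of 0.02 over all tested genes. The estimate was above 0 for 40 genes and below 0 for 38. The design still set limits on what was missed, since 68 of the 78 intervals at 95% confidence lay inside a 2-fold change in either direction.

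The gene with the smallest p in round muscle was MRPS35, a protein of the small subunit. MRPS35 stood at 64.0, 37.2, 79.1 and 65.1 CPM in control calves 1 to 4 and at 22.7, 26.2, 55.0 and 48.5 CPM in treated calves. Treated calves 1 and 2 were below every control calf, and the other two lay among them. The log2 fold change was -0.67 (95% confidence interval -1.39 to 0.05, edgeR adjusted p = 0.864). Without the libraries of control replicate 2 and treated replicate 2 it was -0.73, with an interval from -1.47 to 0.00414. Next came MRPL49 at 0.46 (SE 0.26), MRPL23 at 0.39 (SE 0.29), MRPL10 at 0.37 (SE 0.27) and MRPL14 at 0.34 (SE 0.25), all large subunit proteins with a higher mean in treated calves. The diet groups overlapped for each of these 5 genes, and for all 78.

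In sirloin muscle the picture was the same, with 0 of 78 genes past the adjusted threshold (0.00918% of the 21776 tested genes passed) and a smallest adjusted p of 0.876. At an unadjusted p under 0.05 the count was again 0, against 3.91% of all tested genes, and DESeq2 and limma-voom gave 0 adjusted calls. The estimates ran from -0.43 to 0.18 with a median of -0.06, beside 0.03 over all tested genes, and 52 of the 78 lay below 0. Of the 78 intervals, 73 lay inside a 2-fold change. Without treated replicate 4, the library with high adipocyte markers, the median was -0.06, with 48 estimates below 0, and 1 gene had an unadjusted p under 0.05 (3.14% of all), MRPS26 at -0.78. The small subunit had 21 of 29 estimates below 0 with a median of -0.10, and the large subunit 31 of 49 with a median of -0.02.

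MRPS5, a protein of the small subunit near the path of the messenger RNA, had the smallest p in sirloin muscle. MRPS5 stood at 58.4, 67.0, 65.6 and 57.0 CPM in control calves 1 to 4 and at 50.2, 36.7, 55.9 and 47.2 CPM in treated calves. Every treated calf was below every control calf, which held for 1 of the 78 genes in sirloin and 0 in round muscle, while 1.68% and 1.76% of all tested genes had groups without overlap. The log2 fold change was -0.39 (95% confidence interval -0.81 to 0.03, edgeR adjusted p = 0.876). In round muscle MRPS5 stood at 53.0 to 64.3 CPM in control and 40.8 to 64.2 CPM in treated calves, with a log2 fold change of -0.10. MRPS35 came second in sirloin muscle at -0.43 (SE 0.23), followed by MRPL15 at -0.42 (SE 0.25), MRPL53 at -0.27 (SE 0.17) and MRPS25 at -0.30 (SE 0.22).

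**Figure D2:**
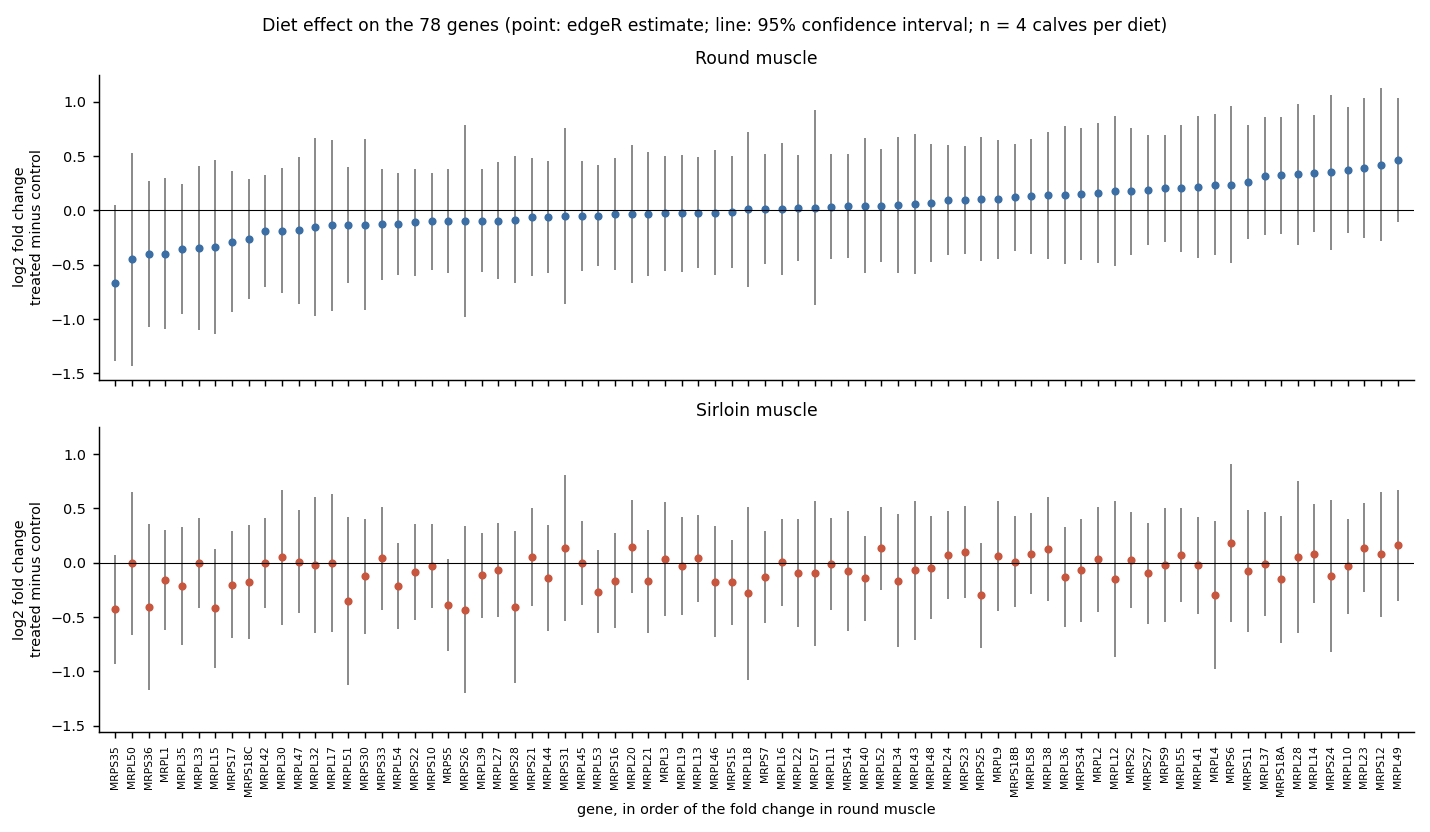
Log2 fold change, treated minus control, of the 78 genes in round (top) and sirloin muscle (bottom), as edgeR estimates (points) with 95% confidence intervals (lines), in the order of the round estimates. The estimates run from -0.67 to 0.46 in round and from -0.43 to 0.18 in sirloin muscle, and every interval includes 0.

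The diet effect was not shown to differ between the muscles for any of the genes. The edgeR interaction test over 16 libraries gave 0 of 78 adjusted calls (0% of 22877 tested genes) and 0 at an unadjusted p under 0.05, where 2.78% of all tested genes lay. The largest of the 5 genes with the smallest p was MRPL4, with a log2 difference, sirloin effect minus round effect, of -0.51 (SE 0.44). The others were MRPS18A at -0.45 (SE 0.36), MRPS24 at -0.45 (SE 0.44), MRPL10 at -0.38 (SE 0.32) and MRPS25 at -0.37 (SE 0.33). This test was the least precise, and 50 of the 78 intervals lay inside a 2-fold difference. It did not pair the muscles of a calf, so its errors include differences between calves. The count with the calf as a block, which includes MRPL4, is given in the last section.

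With both muscles of a calf summed, so that the calf is the replicate, 0 of 78 genes passed the adjusted threshold (0.00437% of all tested genes) and 1 had an unadjusted p under 0.05 (3.85% of all). That gene was MRPS35, with a log2 fold change of -0.57 (95% confidence interval -1.14 to -0.00252, edgeR adjusted p = 0.933). Without the calves of the 3 libraries that stood apart it was -0.72, with an interval from -1.44 to 0.00728, which includes 0. MRPS36 at -0.43 (SE 0.27), MRPL15 at -0.40 (SE 0.28), MRPL35 at -0.32 (SE 0.24) and MRPS5 at -0.27 (SE 0.18) followed. MRPS36 stood at 45.6, 40.7, 64.4 and 71.3 CPM in round control, 33.7, 23.6, 50.5 and 58.2 CPM in round treated, 38.9, 60.4, 40.6 and 38.9 CPM in sirloin control and 48.2, 13.0, 36.1 and 37.9 CPM in sirloin treated calves. The diets overlapped in both muscles, and treated calf 2 was lowest of its group in both.

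A set of genes with known roles showed the same small differences. MRPL10 and MRPL12 form the stalk of the large subunit that recruits translation factors, MRPL11 lies at its base, and MRPL12 has also been found with the mitochondrial RNA polymerase. MRPL58 is a peptidyl-tRNA hydrolase that frees stalled chains. Inherited defects of MRPL3, MRPL44, MRPS2, MRPS7, MRPS16, MRPS22 and MRPS34 cause respiratory chain disease in people. Together with MRPS12 these 12 genes had log2 fold changes from -0.11 for MRPS22 to 0.42 for MRPS12 in round muscle and from -0.16 for MRPS16 to 0.08 for MRPL58 in sirloin muscle. In both muscles 0 of the 12 had an unadjusted p under 0.05, where 4.41% of all tested genes did in round and 3.91% in sirloin muscle, so the count does not set these few genes apart.

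Between the muscles, 1 of the 78 genes had an unadjusted p under 0.05 (6.33% of the 22877 tested genes) and 0 passed the adjusted threshold (0.0612% of all). The differences, sirloin minus round, had a median of -0.09, beside 0.00 over all tested genes, and 58 of the 78 lay below 0. All 78 intervals lay inside a 2-fold difference.

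The gene was MRPL41, a large subunit protein that has also been linked to cell death control. MRPL41 stood at 30.5, 19.2, 32.1 and 26.6 CPM in round control and 42.3, 16.3, 33.1 and 32.0 CPM in round treated calves. In sirloin muscle it stood at 39.9, 34.6, 45.9 and 43.9 CPM in control and 43.8, 36.6, 49.2 and 32.2 CPM in treated calves. It was higher in the sirloin muscle of 8 of 8 calves, though by only 0.01 on the log2 scale in treated calf 4. The log2 difference was 0.49 (95% confidence interval 0.11 to 0.87, edgeR adjusted p = 0.695), and 0.42 (0.06 to 0.78) without the calves of the libraries that stood apart.

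With the calf as a block, which pairs the muscles of an animal, 6 of the 78 genes had an unadjusted p under 0.05, 2 higher and 4 lower in sirloin muscle. Of all tested genes 11.2% did, 5.56% higher and 5.6% lower, and 0 of the 78 passed the adjusted threshold (0.476% of all). MRPL41 at 0.53 and MRPS6 at 0.46 were higher. MRPL18 at -0.33, MRPS11 at -0.33, MRPS27 at -0.27 and MRPL54 at -0.22 were lower, and the smallest adjusted p, that of MRPL41, was 0.117. MRPL54 was lower in the sirloin muscle of 8 of 8 calves, with log2 differences from -0.44 to -0.03. MRPS27, which carries RNA-binding repeats, was lower in 7 of 8 calves. Without the 3 calves whose libraries stood apart the count was also 6, where 11.7% of all did. It kept MRPL41, MRPS6, MRPL18 and MRPS11, lost MRPS27 and MRPL54, and gained MRPS25 at -0.33 and MRPL3 at -0.30.

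More genes were called between calves than between diets or muscles. In a test chosen after the data were seen, edgeR compared the 4 calves within each diet over both muscles, with the muscles of a calf as its 2 measurements. Of the 78 genes, 18 passed the adjusted threshold, 14 with a large and 4 with a small subunit symbol. This was 23.1% of them, where 18.5% of the 22877 tested genes passed, so that the share of these genes lay near that of all genes. At an unadjusted p under 0.05 the counts were 42 of 78, or 53.8%, against 33.7% of all. The animal, its sampling and any step shared by its muscles cannot be told apart in this test.

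The gene with the smallest p was MRPS26, a small subunit protein. MRPS26 stood at 31.9, 13.8, 28.8 and 47.3 CPM in the round muscle of control calves 1 to 4 and at 26.0, 17.4, 30.4 and 44.3 CPM in their sirloin muscle. In treated calves 1 to 4 it stood at 29.3, 18.3, 17.0 and 47.6 CPM in round and 21.8, 14.7, 14.9 and 36.6 CPM in sirloin muscle. Calf 4 of each diet was highest in both muscles, and the highest calf exceeded the lowest by 2.48 to 3.42 times in the 4 groups (edgeR adjusted p = 0.00108).

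MRPL18, which lies in the central protuberance of the large subunit, followed with an edgeR adjusted p of 0.00171. MRPL18 stood at 18.2, 35.6, 23.8 and 23.9 CPM in round and 14.7, 36.9, 19.8 and 18.8 CPM in sirloin muscle of the control calves. It stood at 36.9, 14.7, 18.2 and 30.5 CPM in round and 28.4, 10.2, 14.4 and 21.5 CPM in sirloin muscle of the treated calves. Control calf 2 and treated calf 1 were highest in both muscles, and control calf 1 and treated calf 2 lowest.

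MRPL50, a large subunit protein, had an edgeR adjusted p of 0.0115. It stood at 29.1, 9.01, 42.0 and 39.7 CPM in round control and at 27.6, 12.2, 33.0 and 29.5 CPM in sirloin control calves, with calf 2 lowest in both. In treated calves 1 to 4 it stood at 13.0, 13.2, 30.5 and 29.8 CPM in round and 18.5, 27.4, 29.3 and 27.0 CPM in sirloin muscle, so that treated calf 2 was low in round muscle only. MRPL28, MRPL4 and MRPL57 completed these 6, with edgeR adjusted p between 0.00732 and 0.0145.

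Over all 78 genes, 45 had the same lowest control calf in both muscles and 56 the same lowest treated calf, while 38 and 43 had the same highest calf. The same counts over all tested genes were not taken. Treated calf 2 had 74 of the 78 genes below its group mean in round and 62 in sirloin muscle, so the 56 are not separate differences. The other genes called between calves were MRPL2, MRPL12, MRPL17, MRPL30, MRPL32, MRPL37, MRPL43, MRPL49, MRPL51, MRPS24, MRPS30 and MRPS31. The 18 were named after their values were seen, except MRPL4, MRPL12, MRPL49 and MRPS24. DESeq2 called 45 of the 78 genes and 34.2% of all. The count changed with the calves kept. It was 9 without control calf 2 and 11 without treated calf 2, and the share of all tested genes in these fits was not taken. Without the 3 calves whose libraries stood apart it was 4 (MRPL18, MRPL28, MRPS26 and MRPS35), where 8.38% of all tested genes passed.

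**Figure D3:**
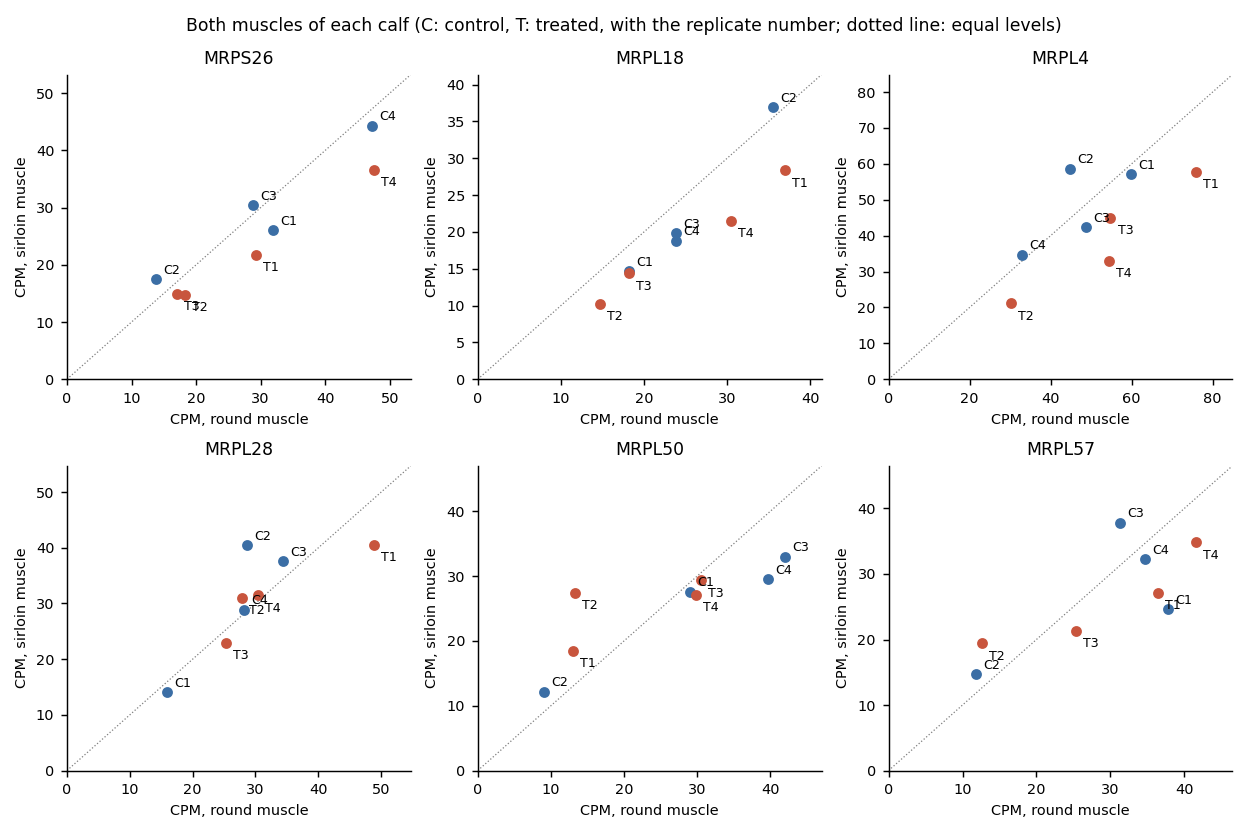
CPM in round (horizontal) and sirloin muscle (vertical) of the 6 genes with the smallest p between calves, one point per calf, control (C) in blue and treated (T) in red, with the replicate number. Most points lie near the dotted line of equal levels, with T2 of MRPL50 above it, and MRPS26 is highest in C4 and T4 and MRPL18 in C2 and T1 in both muscles.

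Over the whole set, the profile of the 78 genes was compared between the muscles of each calf. After the mean of each group was removed, the correlation across the 78 genes between round and sirloin muscle of the same calf was 0.474 to 0.812 with a median of 0.602 over 8 calves. Between different calves of a diet it was -0.551 to 0.310 over 24 pairs, values that removing the mean of 4 calves pushes below 0. Between calves of different diets it was -0.339 to 0.567 over 32 pairs, which overlapped the same-calf values. Over all 14464 genes expressed in both muscles the same-calf values were 0.382 to 0.744. Without the 3 calves whose libraries stood apart, the 5 same-calf values over the 78 genes were 0.376 to 0.727, and those between diets reached 0.425.

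The genes moved together across libraries, more so in round muscle when all 8 libraries of a muscle were kept. Correlations were taken on log2 CPM within a muscle, over 8 libraries, with the mean of each diet group removed, and are descriptions of libraries that share depth and normalisation. The median Pearson correlation over the 3003 pairs of the 78 genes was 0.539 in round and 0.300 in sirloin muscle, beside 0.003 and 0.002 over pairs of all expressed genes. Of the pairs, 89.3% were positive in round and 71.3% in sirloin muscle. The first principal component of the 78 genes held 54.0% of their variance in round and 48.1% in sirloin muscle. Pairs within the large subunit had medians of 0.549 and 0.327, pairs within the small subunit 0.523 and 0.192, and pairs between the subunits 0.538 and 0.278.

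The correlation leaned on a few libraries. In round muscle the mean deviation of the genes from their group mean was -0.44 on the log2 scale in treated replicate 2, with 74 of the 78 genes below, and -0.32 in control replicate 2, with 70 of 78 below. In sirloin muscle it was -0.30 in treated replicate 2, with 62 of 78 below, and 0.19 in treated replicate 1, with 65 of 78 above. The other 12 libraries had means between -0.05 and 0.20. Without treated replicate 2 the median correlation was 0.337 in round and 0.123 in sirloin muscle, and without both round libraries that stood apart by markers it was 0.119. Without sirloin treated replicate 4, the sirloin library that stood apart by markers, it was 0.342, above the round value. The 2 low round libraries are those with the high fibroblast and slow fibre markers, while sirloin treated replicate 2 had 253 TPM of fibroblast and 21309 TPM of slow fibre markers, inside the range of the other sirloin libraries, but had the highest immune cell markers. Round treated replicate 2 had the highest of the round libraries. The part of other cells and fibre types in the low values was not tested.

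**Figure D4:**
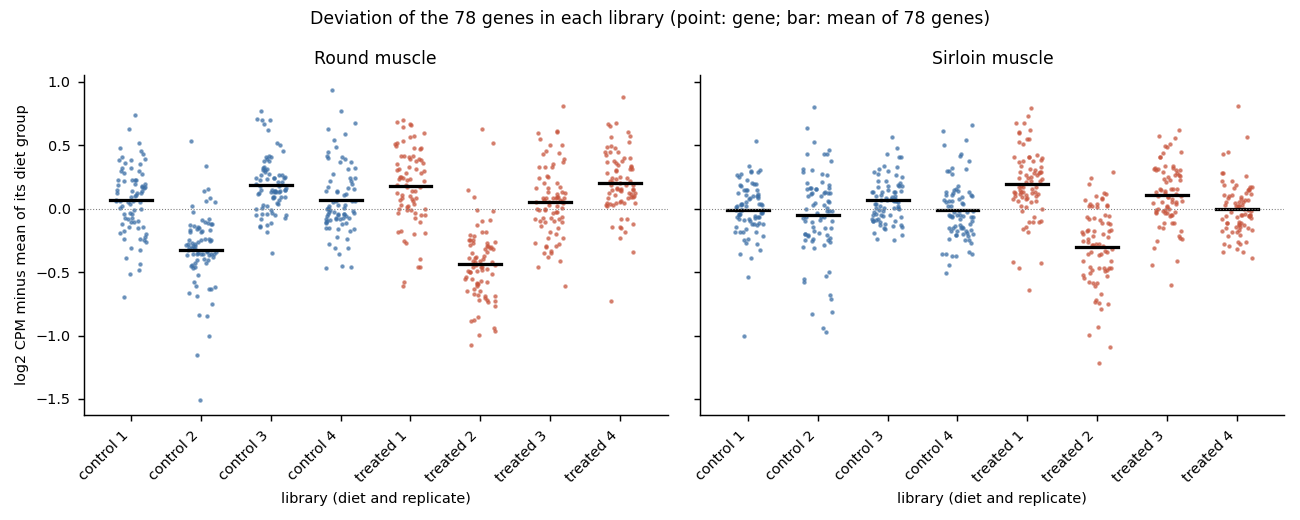
Deviation of each of the 78 genes (points) from the mean of its diet group in log2 CPM, by library, for round (left) and sirloin muscle (right), with the mean over genes as a bar. The bars of round control 2 (-0.32), round treated 2 (-0.44) and sirloin treated 2 (-0.30) lie lowest.

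**Figure D5:**
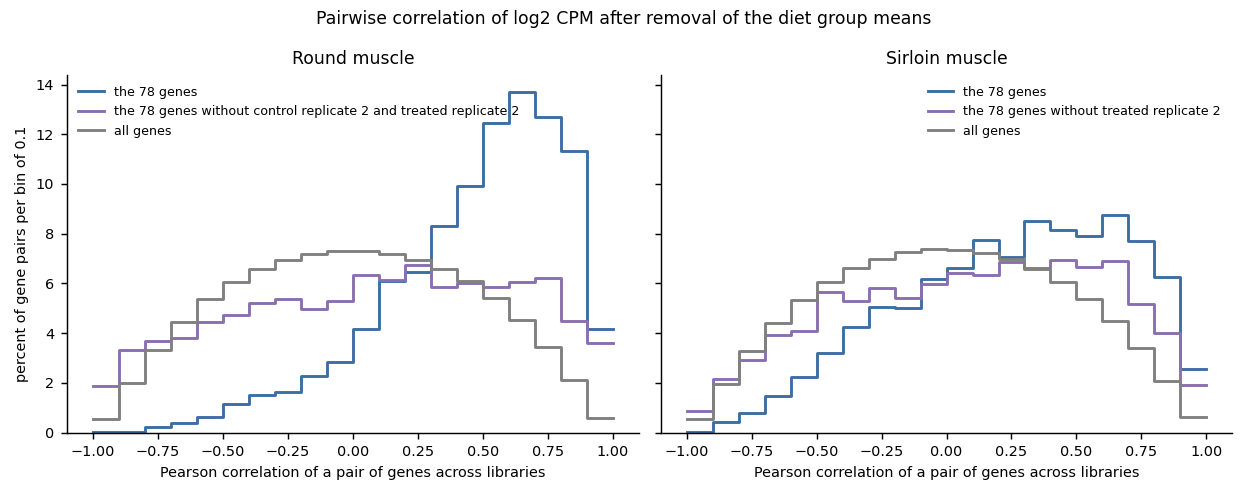
Percent of gene pairs per bin of Pearson correlation across 8 libraries of a muscle, for the 78 genes, for the same genes without the low libraries, and for all expressed genes. The curve of the 78 genes has its median at 0.539 in round and 0.300 in sirloin muscle. Without round control 2 and treated 2 the median is 0.119, and without sirloin treated 2 it is 0.123. Without sirloin treated 4, which is not drawn, it is 0.342.

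Other gene groups were coordinated more or less strongly than the mitoribosome genes. The median pair correlation within the nuclear-encoded respiratory chain subunits was 0.729 in round and 0.808 in sirloin muscle. Within the proteins of the cytosolic ribosome, which translates nuclear messages, it was 0.796 and 0.504. It was 0.209 and 0.385 within the mitochondrial translation factors, 0.120 and 0.252 within the mitoribosome assembly factors, and -0.001 and 0.261 within the mitochondrial aminoacyl-tRNA synthetases. Without the 2 round libraries that stood apart, the round value was 0.223 for the respiratory chain and 0.678 for the cytosolic ribosome. Without sirloin treated replicate 2 the sirloin value was 0.467 and 0.534. The mitoribosome genes correlated with the respiratory chain genes at medians of 0.567 and 0.467, and at -0.025 and 0.045 without those libraries. With the cytosolic ribosomal protein genes they correlated at 0.535 in round and -0.100 in sirloin muscle, and at 0.114 and -0.061 without those libraries. Without sirloin treated replicate 4 instead, the sirloin library that stood apart by markers, the value was 0.852 within the respiratory chain and 0.587 within the cytosolic ribosome. The mitoribosome genes then correlated with these sets at 0.569 and -0.102. Sirloin treated replicate 2 differed between the sets. In that library the mean deviation was 0.04 for the cytosolic genes and -0.63 for the respiratory chain genes.

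Single genes followed the set to different degrees. The correlation of a gene with the mean of the other members of the set had a median of 0.733 in round muscle, with 76 of 78 positive, and 0.597 in sirloin muscle, with 68 positive. MRPL44, needed for assembly and stability of the large subunit, followed it closely in both muscles (0.966 and 0.977), as did MRPL12 (0.914 and 0.887). MRPL3 had the highest value in round muscle, at 0.969. MRPS6 (-0.380 and -0.121) and MRPS18A (-0.262 and -0.187) were negative in both muscles. MRPS35 was positive in round (0.584) and lowest of all in sirloin muscle (-0.274), and MRPL9, the second most abundant, went from 0.696 to -0.249.

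In round treated replicate 2, where 74 of the 78 genes lay low, MRPS6 and MRPS18A lay high. MRPS6 stood at 29.7 CPM in round treated replicate 2, the highest of that group, against 14.3, 27.5 and 11.6 CPM in its other libraries. MRPS18A stood at 64.3 CPM there, against 36.3, 36.9 and 46.4 CPM.

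MRPS18A, MRPS18B and MRPS18C descend from one bacterial ribosomal protein, and structures place the MRPS18A product in the large subunit despite its symbol. Their correlations differed in sign between pairs and muscles. MRPS18A and MRPS18B correlated at -0.342 in round and 0.502 in sirloin muscle, MRPS18A and MRPS18C at 0.022 and -0.640, and MRPS18B and MRPS18C at 0.105 and -0.527.

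MRPL46 and MRPS11 are neighbours in the bovine reference annotation ARS-UCD2.0 and do not overlap there. They correlated at 0.977 in round and 0.913 in sirloin muscle. MRPL46 stood at 17.4, 13.6, 16.3 and 12.7 CPM in round control and 18.2, 9.28, 14.9 and 15.7 CPM in round treated calves. MRPS11 stood at 20.2, 16.3, 18.4 and 14.5 CPM and at 24.6, 14.4, 22.1 and 20.5 CPM in the same libraries. Control calf 1 and treated calf 1 were highest for both, and control calf 4 and treated calf 2 lowest. Whether reads could be assigned to both genes was not tested.

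The spread of the genes between calves of a group was below that of the median gene. The median SD of log2 CPM within groups was 0.341 in round and 0.278 in sirloin muscle, beside 0.486 and 0.453 over all expressed genes. This was not particular to the set. The medians were 0.334 and 0.272 for the mitochondrial aminoacyl-tRNA synthetases, 0.363 and 0.321 for the translation factors and 0.380 and 0.359 for the assembly factors. They were 0.385 and 0.356 for the respiratory chain subunits and 0.375 and 0.172 for the cytosolic ribosomal proteins. Genes were not matched by level.

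The wider machinery of mitochondrial translation had no gene past the adjusted threshold for diet in either muscle. At an unadjusted p under 0.05, 0 of 5 mitoribosome subunits with other symbols, 0 of 24 translation factors and 0 of 18 genes of mitochondrial transcription and RNA stability were called in either muscle, where 4.41% of all tested genes were in round and 3.91% in sirloin muscle. Of the 5 subunits, DAP3, a GTP-binding protein of the small subunit, had log2 fold changes of 0.24 in round and 0.09 in sirloin muscle, and those of PTCD3, CHCHD1, AURKAIP1 and GADD45GIP1 lay between -0.05 and 0.13 in round and between -0.20 and 0.04 in sirloin muscle. Of 25 assembly factors 1 was called in round and 0 in sirloin muscle, namely TFB1M, which methylates the small ribosomal RNA, at 0.60 (SE 0.26). Of 17 mitochondrial aminoacyl-tRNA synthetases 1 was called in round and 0 in sirloin muscle, namely VARS2, which charges the valine tRNA, at 0.71 (SE 0.25). Lists this short, with 0 or 1 gene called, lie near the share of all genes.

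The genes that the mitoribosome translates and a regulator of mitochondrial content had lower means in treated calves. Of the 13 protein genes of the mitochondrial genome, 13 had negative estimates in round and 13 in sirloin muscle, with medians of -0.56 and -0.54. Of these 2 and 9 had an unadjusted p under 0.05, where 2.49% and 1.62% of all tested genes were called lower, and 0 passed the adjusted threshold in either muscle. Without the libraries that stood apart, 12 were below 0 in round and 13 in sirloin muscle, with 3 and 12 at an unadjusted p under 0.05. The share of all tested genes called lower in these reduced fits is not given, so the higher counts cannot be set against it. The 13 genes are cut from shared long transcripts and are not independent of one another. ND2, a subunit of complex I, stood at 4040, 3933, 4609 and 6675 CPM in round control and 1740, 3119, 2948 and 2882 CPM in round treated calves, without overlap, and its log2 fold change was -0.83 (95% confidence interval -1.48 to -0.18, edgeR adjusted p = 0.864). In sirloin muscle it stood at 2690, 4098, 3593 and 3633 CPM in control and 2102, 2627, 1683 and 3094 CPM in treated calves, with overlap.

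PPARGC1A encodes a coactivator that induces nuclear genes of mitochondria, among them mitoribosome genes. PPARGC1A stood at 125, 34.9, 540 and 410 CPM in round control and 23.9, 56.3, 45.5 and 41.8 CPM in round treated calves. In sirloin muscle it stood at 734, 43.5, 136 and 517 CPM in control and 36.5, 29.4, 63.6 and 62.8 CPM in treated calves. Control calf 2 lay among the treated calves in both muscles. The log2 fold changes were -2.71 (SE 0.66) and -2.90 (SE 0.72), with edgeR adjusted p of 0.864 and 0.876. The study, with DESeq2, listed PPARGC1A as lower in treated calves in both muscles at an adjusted p under 0.05. Its qPCR in round muscle was also lower in treated calves. Of the 16 nuclear regulators, PPARGC1A was the 1 with an unadjusted p under 0.05 in each muscle. In the same calves the median log2 fold change of the 78 mitoribosome genes was 0.01 in round and -0.06 in sirloin muscle. That of the respiratory chain subunits was 0.04 and -0.16 and that of the cytosolic ribosomal proteins 0.07 and 0.23. The cytosolic set had 76 of 79 estimates above 0 in sirloin muscle, with 4 at an unadjusted p under 0.05, which is 5.06% of them against 3.91% of all tested genes. Without treated replicate 4 these counts were 75 and 1.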

How the data were processed

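RNA-seq of 16 libraries, 1 round and 1 sirloin library from each of 8 calves, was analysed from a table of read counts per gene and a table of TPM per gene, both deposited by the authors for NCBI gene IDs. Per the labels the counts, which are not normalised, came from poly(A) libraries, FastQC, Trimmomatic, STAR, featureCounts and the build ARS-UCD1.2. The study's methods instead name a stranded total RNA kit with ribosomal RNA removal, and HISAT2 and StringTie, so the route to the deposited TPM values cannot be settled here, nor can the treatment of reads that fit several genes, which makes genes with near-identical copies uncertain. Symbols came from the RefSeq table of ARS-UCD2.0, which named 30762 of the 34109 gene IDs and all 78 genes of the set.

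Library totals ran from 44473011 to 72446933 counts. Counts were fitted in edgeR 4.0.16 (R 4.3.3) with TMM factors and the quasi-likelihood F test, two-sided, on every gene with at least 1 count in the libraries of the fit, with Benjamini-Hochberg adjustment over all tested genes and a threshold of 0.05. Diets were compared within each muscle, over both muscles summed per calf, and between muscles by an interaction. The muscles were compared over 16 libraries. Printed CPM are TMM-scaled over 16 libraries. Log2 CPM for correlations had a prior count of 2. DESeq2 1.42.0, limma-voom 3.58.1, RLE and upper-quartile factors, a low-count filter, blocks, and leaving out calves were alternatives, and the scripts were tested on simulated data. Leaving out the libraries that stood apart by marker genes, also with the calf block, was chosen after seeing the data. The labels give both muscles of a calf one number, and deviations of the set's genes in the muscles of a calf correlated at 0.474 to 0.812, so the calf was used as a block in the muscle comparison.

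The genes, lists and tests were chosen with earlier results of these data known. Genes were named if past the adjusted threshold in a planned comparison, among the 5 smallest p of each, among the 5 highest or lowest mean TPM, the MRPS18 paralogues, 12 genes of known role, or, from other lists, PPARGC1A, subunits with other symbols and up to 2 genes of smallest p. Other names were chosen after their values were seen. They are the genes named for differences between calves, within the calf block, by correlation, and MRPL46.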

Additional observations from a re-analysis of the deposited data

Results flagged for a closer look

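In 160 groups of 4 libraries, the highest or lowest library was tested for standing far from the other 3 by Dixon's criterion, and 11 did, where chance gives about 1 in 20. In round treated replicate 2, the library with high slow fibre markers, MRPL12 stood at 27.3 CPM against 65.7 to 70.9 CPM in the other treated round libraries, MRPL3 at 25.7 CPM against 39.5 to 40.9 CPM, MRPS27 at 44.2 CPM against 67.6 to 69.3 CPM, and MRPS33 at 32.7 CPM against 48.6 to 51.2 CPM. MRPS28 stood at 12.2 CPM in round control replicate 1 against 8.30 to 8.87 CPM in the other control round libraries.

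In the sirloin control libraries, the summed TPM of the 78 genes was 3690 in replicate 1 against 4083 to 4154 in the others. MRPL15 stood at 114 CPM in replicate 4 against 79.2 to 82.3 CPM, and MRPL3 at 35.3 CPM in replicate 3 against 30.2 to 30.9 CPM. In replicate 2 MRPS2 stood at 22.7 CPM against 35.7 to 36.3 CPM and MRPS36 at 60.4 CPM against 38.9 to 40.6 CPM. In sirloin treated replicate 4, the library with high adipocyte markers, MRPS7 stood at 22.1 CPM against 25.8 to 26.5 CPM. The part of other cells and fibre types in these values was not tested.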

How the results depend on the processing

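No tested difference reversed, and 0 genes of the set passed the adjusted threshold for diet, muscle or their interaction under any alternative run. The count between calves was 45 with DESeq2 (34.2% of all tested genes) and 4 without the libraries that stood apart (8.38%). It was 9 to 23 with 1 calf left out and between 16 and 21 under the other alternatives. For these fits the share of all tested genes is not given. The diet difference in summed level changed sign between the scales in both muscles, in sirloin from 0.0976 in TPM to -0.0862 on the log2 scale in TMM-normalised CPM. The median correlation on log2(TPM + 1) was 0.310 in round and 0.218 in sirloin muscle. On log2 CPM it was 0.119 in round and 0.342 in sirloin muscle without the libraries that stood apart. With 1 calf left out it was 0.337 to 0.600 in round and 0.123 to 0.342 in sirloin muscle. The cause of these shifts was not tested.

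Replicate numbers are shared by the diets but do not pair the calves, since control and treated calves are different animals. Same-numbered libraries of the diets correlated at -0.053 to 0.254 in round and -0.222 to 0.243 in sirloin muscle. With the number as a replicate block, genes at an unadjusted p under 0.05 numbered 2 in round (MRPS35 and MRPS36, where 3.67% of all tested genes lay), 0 in sirloin muscle (2.13%) and 2 with muscles summed per calf (2.81%), and with the calf as block 1 for the interaction (MRPL4, 3.78%), and 0 passed the adjusted threshold. The promoter motif search was not run, as no promoter sequences were used here. With 4 calves a group, precision was limited, and 0 intervals in round and 17 of 78 in sirloin muscle lay inside 0.5 on the log2 scale.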
